A study of Homo sapiens with 6 samples.

Results

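The miR-423 hairpin gave a pair of mature miRNAs, miR-423-5p (hsa-miR-423-5p in the table) from its 5′ side and miR-423-3p (hsa-miR-423-3p) from its 3′ side. By read count, both were among the most abundant miRNAs of extracellular vesicles (EVs) from Cal27 spheroids. The rows with these 2 names were taken from the 471 rows of the raw miRNA count table. They were selected on their read counts, as abundant arms of one hairpin, when the comparison of soft and stiff matrix was already known, so their levels and ranks are a description and the comparisons of the arms are not independent evidence. Cal27 is a human oral squamous cell carcinoma line. Its spheroids were grown on a layer of Matrigel, a basement membrane gel, at 3 mg/mL (labelled Soft ECM, here EV_soft) or 12 mg/mL (labelled Stiff ECM, here EV_stiff). Small EVs were isolated from the medium of day 14 by insulator-based dielectrophoresis, and small RNA was sequenced in 3 libraries per group. Both groups had growth factor-reduced Matrigel of the same batch and serum depleted of EVs by ultracentrifugation. Stiffness was set by the gel concentration, so stiffness, the amount of Matrigel material and the structure of the gel cannot be told apart in this design.

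By the study's methods, replicates were separate isolations from the media of repeated cultures. Total miRNA counts lay between 28688 and 66345 per library, and every EV_soft library had more reads than every EV_stiff library (exact two-sided permutation test, p = 0.1, below which 3 samples against 3 cannot go). Of the 7 epithelial marker miRNAs listed, all had a row, though a row can hold few reads. The highest, miR-205-5p, a marker of squamous epithelium, stood at position 9 of all rows by mean share. At the low end, miR-141-3p had between 2 and 25 reads per library and was not tested, and miR-203a-3p had as few as 6. Of the 6 stromal markers listed, 4 had a row of their own, and these did not exceed 0.0314% of any library's counts in sum. miR-199a-3p shared a row with miR-199b-3p, which had 2 reads over all libraries and was left out of the sum.

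A miRNA hairpin is cut from its primary transcript by Drosha and then opened at the loop by Dicer, which leaves a short duplex of both arms. As a rule Argonaute keeps the strand with the less stable 5′ end, and the other strand is degraded, so that for most hairpins a single arm dominates. The seed, bases 2 to 8 of the strand that is kept, directs the pairing with target mRNAs, so the arms of a hairpin address different targets. miR-423 is known as a widely expressed miRNA that is detected in plasma and in EVs, and its arms have been used as reference miRNAs for normalization of such samples.

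The mature sequences from RefSeq (GRCh38.p14) show that the arms carry unrelated seeds, given in capitals. The arms of miR-3184, a hairpin annotated on the opposite strand of the same locus, are shown because they overlap those of miR-423. miR-3184-3p covers the same bases as miR-423-5p, and miR-3184-5p overlaps miR-423-3p in part.
miR-423-5p: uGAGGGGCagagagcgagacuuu
miR-423-3p: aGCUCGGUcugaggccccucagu
miR-3184-5p: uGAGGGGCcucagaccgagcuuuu
miR-3184-3p: aAAGUCUCgcucucugccccuca

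On chromosome 17 of GRCh38, the hairpin of miR-423 spans 94 bases of the plus strand from 30117079 to 30117172. Its 5p arm lies from 30117095 to 30117117 and its 3p arm from 30117131 to 30117153, with 13 bases between them. GENCODE 44 places it inside NSRP1, a protein-coding gene on the same strand whose product is a splicing regulator. Of the 12 NSRP1 transcripts that span the whole hairpin, 11 have it in an intron and 1 has it in an exon, within the untranslated region. RNAfold gave the hairpin a minimum free energy of -48.8 kcal/mol and paired 17 of the 23 bases of the 5p arm with bases of the 3p arm. Both mature strands have 23 bases. The 5p arm begins with U and has 43.5% G, position 8 among the 98 tested miRNAs with a RefSeq sequence, whose median was 27.3%. The 3p arm begins with A and has a GC content of 65.2%, position 4 among the same 98 miRNAs, whose median was 47.7%.

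The seed of miR-423-3p was found in no other of the 2370 mature miRNA names in RefSeq. That of miR-423-5p was shared by miR-3184-5p alone, and both sequences start with the same 8 bases. The hairpin of miR-3184 spans 30117086 to 30117160 on the minus strand, and miR-3184-3p is the exact reverse complement of miR-423-5p. Over all 6 libraries, 14 reads were counted for miR-3184-3p against 5633 for miR-423-5p. miR-3184-5p, which overlaps miR-423-3p by 21 bases, had 3 reads against 5978 for miR-423-3p, and all 3 were in EV_soft replicate 2. The sources used here do not say whether counting used the strand. Counting without the strand would not separate antisense partners. The rows of each pair had very unequal counts, and how reads were assigned between the partners was not tested. No row with more than one name included either arm.

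With the libraries scaled by edgeR's TMM factors and expressed as CPM (reads scaled to a fixed library total), miR-423-5p stood at 17710, 13041 and 17481 CPM in EV_soft replicates 1, 2 and 3. In EV_stiff its levels were 38504, 30299 and 40664 CPM. Every EV_stiff library lay above every EV_soft library, and replicate 2 was the lowest of its group in both. The mean level was 16077 ± 2632 CPM (SD, n = 3) in EV_soft and 36489 ± 5468 CPM (SD, n = 3) in EV_stiff. The log2 fold change of EV_stiff over EV_soft was 1.18 (standard error 0.15, 95% interval 0.85 to 1.51). In edgeR's quasi-likelihood test over the 105 miRNAs that passed the filter on low counts, its adjusted p was 0.000359. The study's thresholds ask for a log2 fold change beyond ±0.58 together with an adjusted p no higher than 0.05, and by these miR-423-5p was called higher in EV_stiff. The same call was made for 10.5% of the miRNAs tested, and calls in either direction for 18.1%.

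miR-423-3p stood at 25071, 24801 and 20452 CPM in EV_soft and at 28778, 28142 and 29344 CPM in EV_stiff. Here too the groups did not overlap, with a mean of 23441 ± 2592 CPM (SD, n = 3) in EV_soft and 28755 ± 601 CPM (SD, n = 3) in EV_stiff. Groups without overlap were common: 22.9% of the miRNAs tested were higher in every EV_stiff library, and 47.6% did not overlap in either direction. The log2 fold change of 0.30 (standard error 0.10, edgeR adjusted p = 0.0611) did not pass either threshold. Its 95% interval, from 0.07 to 0.53, stayed under the fold threshold.

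**Figure D1:**
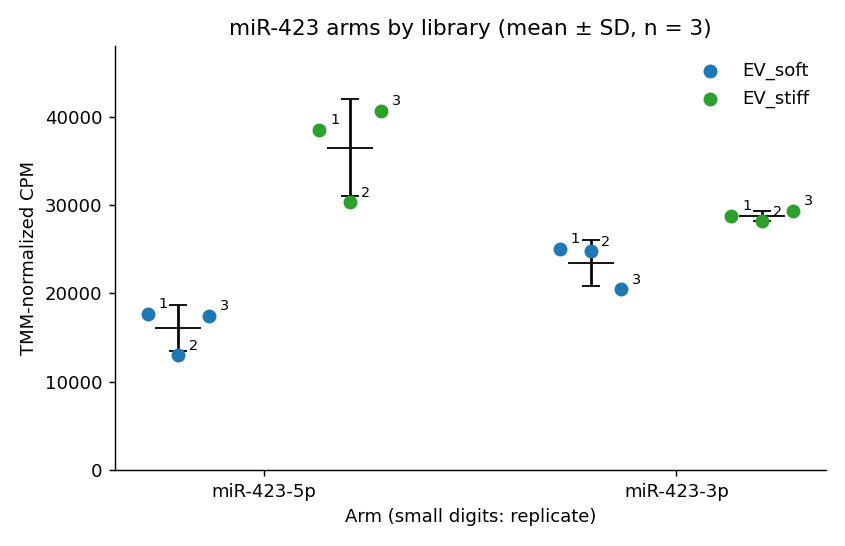
TMM-normalized CPM of miR-423-5p and miR-423-3p (vertical axis) in the 6 libraries, numbered by replicate, with the group mean as a horizontal line and the SD as a bar (n = 3). miR-423-5p lies between 13041 and 17710 CPM in EV_soft and between 30299 and 40664 CPM in EV_stiff, while the groups of miR-423-3p lie closer together.

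CPM set each arm against the rest of its own library. In raw reads, miR-423-5p had 806, 529 and 1171 in EV_soft and 1156, 843 and 1128 in EV_stiff, and the groups overlapped. Those of miR-423-3p numbered 1141, 1006 and 1370 in EV_soft and 864, 783 and 814 in EV_stiff, so that every EV_stiff library was lower. With every library given the same size, the log2 fold change of miR-423-5p was 0.32 (standard error 0.28, adjusted p = 0.323) and that of miR-423-3p was -0.52 (standard error 0.28, adjusted p = 0.105). This scaling moved the median log2 fold change of all miRNAs tested from -0.04 to -0.89. Relative to that median the 5p arm stood at 1.21 and the 3p arm at 0.37. By the labels, libraries started from a like mass of total RNA and were loaded for equal numbers of reads, so raw totals do not measure the yield of vesicles. In bulk EV samples, the number of vesicles and the miRNA per vesicle cannot be told apart.

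In the scatter of fold changes against mean level, miR-423-5p was at position 5 of the 105 log2 fold changes, counted from the highest rise. Among the 20 rows with the highest mean share of counts it had the highest log2 fold change. The next was miR-320a, a miRNA whose hairpin is made without Drosha, at 0.72. miR-423-3p was at position 6 of these 20 rows.

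**Figure D2:**
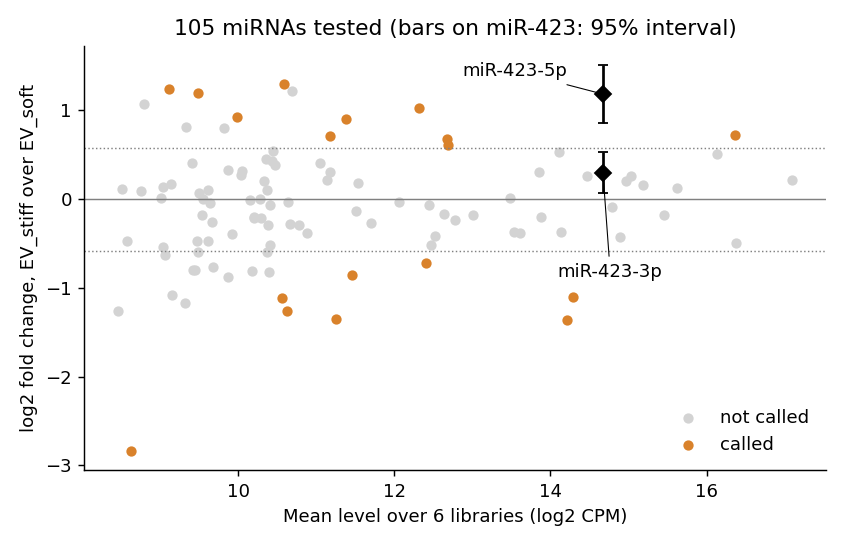
Log2 fold change of EV_stiff over EV_soft (vertical axis) against the mean level in log2 CPM (horizontal axis) of the 105 miRNAs tested, with those called in orange, the thresholds of ±0.58 as dotted lines, and the arms of miR-423 as black diamonds with 95% intervals. The arms have nearly the same mean level, with intervals from 0.85 to 1.51 for miR-423-5p and from 0.07 to 0.53 for miR-423-3p.

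The ratio of the arms within a library does not depend on its size or its scaling factor. In the EV_soft libraries there were 0.706, 0.526 and 0.855 reads of the 5p arm for each read of the 3p arm. In the EV_stiff libraries the ratio was 1.34, 1.08 and 1.39. The 3p arm thus had more reads than the 5p arm in 3 of 3 EV_soft libraries, and the 5p arm had more in 3 of 3 EV_stiff libraries. Whether molecules of both arms gave reads equally well was not tested, so the ratio does not show which arm had more molecules. As a share of the reads of both arms, the 5p arm held 41.4% (95% Wilson interval 39.2 to 43.6), 34.5% (32.1 to 36.9) and 46.1% (44.2 to 48.0) in EV_soft. Its share was 57.2% (55.1 to 59.4), 51.8% (49.4 to 54.3) and 58.1% (55.9 to 60.3) in EV_stiff. All 3 EV_soft intervals lay under an equal share of 50%, and only that of EV_stiff replicate 2 included it. These intervals treat each read as independent. PCR copies are not independent molecules, so the intervals are too narrow even for counting error, and they leave out the variation between cultures.

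**Figure D3:**
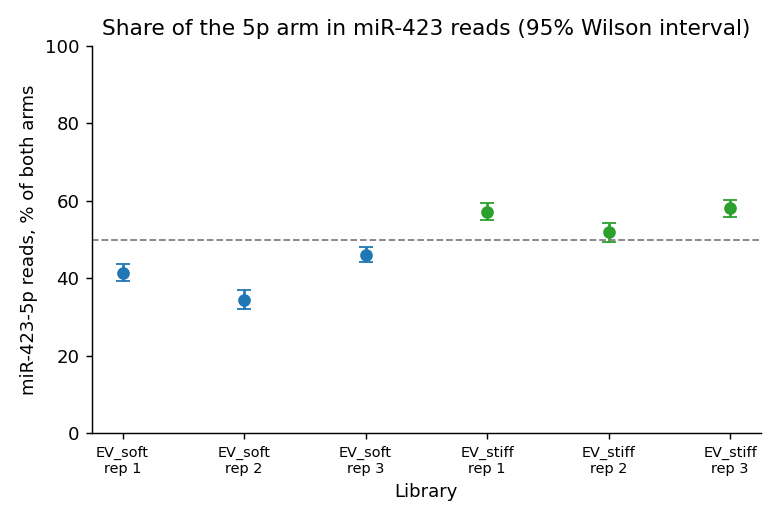
Reads of miR-423-5p as a percent of the reads of both miR-423 arms (vertical axis) in each library (horizontal axis), with 95% Wilson intervals and a dashed line at 50%. The EV_soft libraries lie between 34.5% and 46.1%, and the EV_stiff libraries between 51.8% and 58.1%.

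On the log2 scale (0.5 added to each count) the ratio of 5p to 3p was -0.55 ± 0.35 (SD, n = 3) in EV_soft and 0.33 ± 0.20 (SD, n = 3) in EV_stiff, a difference of 0.88. The groups did not overlap (exact two-sided permutation test, p = 0.1, the smallest possible). The difference was also fitted with limma over the 9 hairpins whose arms both had a mean of at least 10 reads. There it had a standard error of 0.46, a 95% interval from -0.04 to 1.81 and an adjusted p of 0.181, and was not called. In limma the spread of a hairpin is drawn towards that of the others, and the SD of miR-423 within groups was 0.29 against 0.28 to 0.81 for the other 8. The smaller arm of miR-423 had 939 reads on average, and the smaller arms of the other hairpins between 11.7 and 85.5. With edgeR's quasi-likelihood test on the counts of the arms in place of limma, the difference was 0.88 (standard error 0.34, adjusted p = 0.0419) and passed. The call on the arm ratio thus depended on the model.

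Of the 9 hairpins, 22.2% were called by limma and 33.3% by edgeR, and 33.3% had ratios that did not overlap between the groups. The hairpins called by limma were miR-125a, with a difference of -1.68 (adjusted p = 0.00737), and miR-30a, with -1.28 (adjusted p = 0.0363), and in both the 5p arm lost share. The miR-423 ratio moved in the opposite direction, towards the 5p arm. It was the sole ratio of the 9 that had 1 sign in all EV_soft libraries and the other sign in all EV_stiff libraries (11.1% of the hairpins). A change of sign depends on the distance from 0. The EV_soft mean was -0.55 for miR-423, but 2.50 for miR-125a and 1.93 for miR-30a, whose differences were larger. miR-423 was selected for its abundant arms, so a ratio near 0 came with the selection. At the other end, the smallest differences were -0.03 for miR-200a and -0.19 for miR-99b. Besides miR-423, miR-30a and let-7d had both arms among the 60 highest rows, and their 5p arm had more reads in both groups. The log2 ratio of let-7d was 1.75 ± 0.64 (SD, n = 3) in EV_soft and 1.21 ± 0.57 (SD, n = 3) in EV_stiff.

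**Figure D4:**
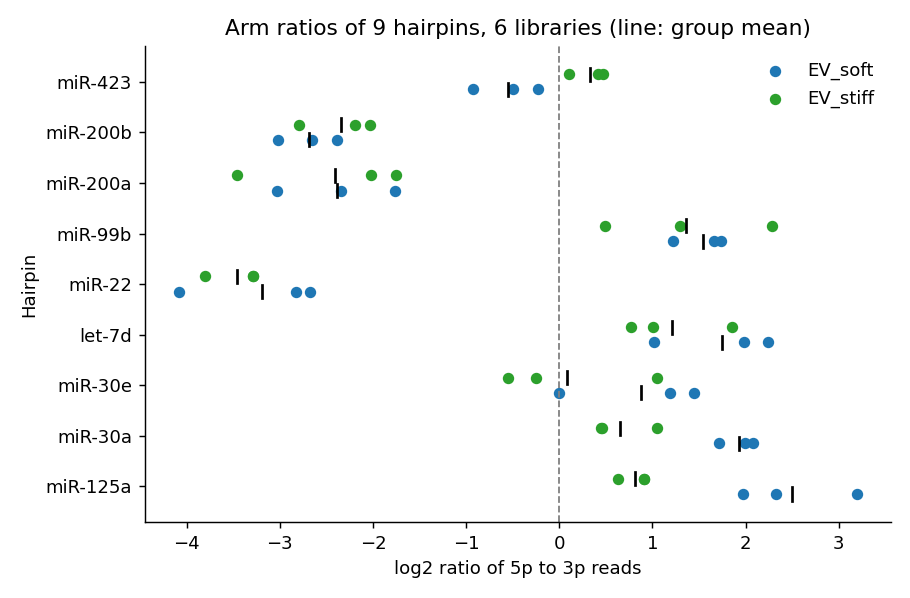
Log2 ratio of 5p to 3p reads (horizontal axis) of 9 hairpins (vertical axis), with 1 point per library and the group mean as a vertical line. The EV_soft points of miR-423 lie left of 0 and the EV_stiff points right of it, while miR-125a and miR-30a move left within the positive range.

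By its place among all rows, miR-423-5p ranked 17, 21 and 18 in EV_soft and 8, 10 and 6 in EV_stiff. miR-423-3p ranked 14, 14 and 16 in EV_soft and 11, 11 and 12 in EV_stiff, a narrower span. Both arms together held 4.25%, 3.91% and 3.83% of the counts in the EV_soft libraries and 6.58%, 5.67% and 6.54% in the EV_stiff libraries, which did not overlap (exact two-sided permutation test, p = 0.1). In raw reads both arms summed to 2008 ± 506 (SD, n = 3) per library in EV_soft and 1863 ± 209 (SD, n = 3) in EV_stiff, a difference smaller than the spread (exact two-sided permutation test, p = 0.8).

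Over all 6 libraries, miR-423-3p held 2.57% ± 0.27 (SD, n = 6) and miR-423-5p 2.56% ± 1.08 (SD, n = 6) of the counts, positions 12 and 13. Above them stood let-7i-5p at 3.00% ± 0.57 and let-7f-5p at 2.81% ± 0.67, members of the let-7 family of differentiation-associated miRNAs. Below them stood miR-92a-3p, of the miR-17-92 cluster, at 2.22% ± 0.21, and miR-200c-3p, an epithelial miRNA, at 1.97% ± 0.84. No pair next to each other in this order differed by more than the larger of their SDs over the libraries, but these SDs hold the difference between the groups, which is wide for miR-423-5p. Within groups its order against miR-92a-3p turned around. In EV_soft, miR-423-5p held 1.62% ± 0.24 and miR-92a-3p 2.09% ± 0.10 (SD, n = 3), and in EV_stiff miR-92a-3p held 2.36% ± 0.20 (SD, n = 3), below miR-423-5p. In EV_stiff, miR-423-5p held 3.50% ± 0.49 (SD, n = 3), close to miR-24-3p at 3.50% ± 0.35 and miR-378a-3p at 3.78% ± 0.14.

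**Figure D5:**
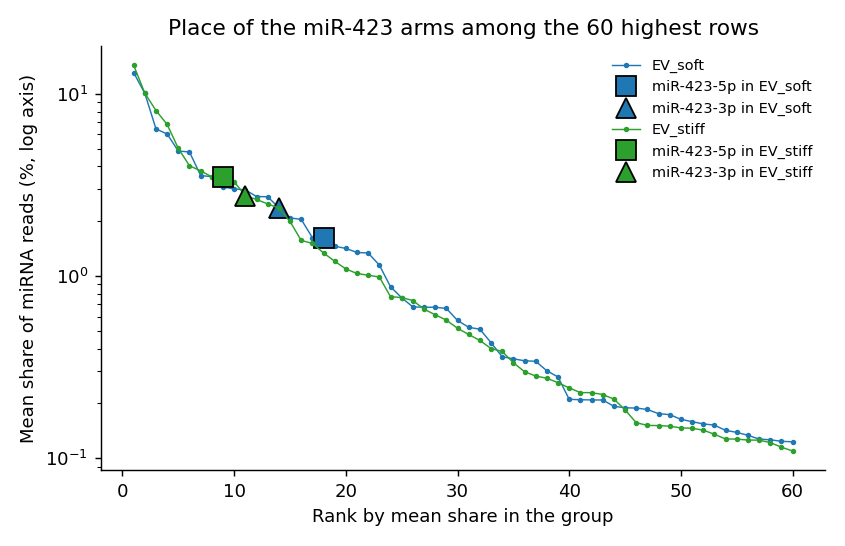
Mean share of miRNA reads in percent (vertical log axis) against rank (horizontal axis) for the 60 highest rows of each group, with miR-423-5p as squares and miR-423-3p as triangles. The 5p arm is at rank 18 in EV_soft and 9 in EV_stiff, and the 3p arm at rank 14 and 11.

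The rows most like miR-423-5p in TMM log2 CPM over the 6 libraries were miR-320a (Pearson r = 0.989), miR-1246 (0.978), miR-378a-3p (0.971) and miR-361-3p (0.967). Those most like miR-423-3p were miR-122-5p (0.887), miR-193b-5p (0.852), let-7c-5p (0.848) and miR-1246 (0.830). The arms correlated with each other at 0.766, less than each of them with the miRNAs named. The points share their libraries and the difference between the groups, so these values describe a likeness over 6 libraries and carry no test.

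The arms were also set beside other miRNAs that serve as references in assays of serum and EVs. Of the 10 listed, 9 were tested, and miR-423-5p was the only member called, against 18.1% of all miRNAs tested. Without miR-423 the 7 tested members had log2 fold changes from -0.88 (miR-93-5p, adjusted p = 0.0745) to 0.32 (miR-191-5p, adjusted p = 0.579), with a median of -0.42 beside -0.04 over all miRNAs tested. miR-24-3p, which matched miR-423-5p in EV_stiff (36442 CPM) but stood above it in EV_soft (30504 CPM), had 0.26 (adjusted p = 0.0647), and let-7i-5p had -0.42 with an adjusted p of 0.00695, under the fold threshold. The tested members other than miR-423, miR-24-3p and let-7i-5p had between 5 and 93 reads per library, so their fold changes are imprecise.

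Among miRNAs of serum and blood, miR-122-5p, the main miRNA of liver, was called higher with miR-423-5p (log2 fold change 1.03, adjusted p = 0.00295 from edgeR). It was 1 of 2 members tested of the 10 listed, against 10.5% of all miRNAs tested, and the other, miR-486-5p, was not called (log2 fold change 0.10, adjusted p = 0.946 from edgeR). miR-486-5p had between 8 and 55 reads per library. Of the other markers of blood cells, miR-451a had at most 8 reads in a library, and miR-223-3p and miR-142-3p had at most 1. miR-144-3p and miR-150-5p had no row in the table. The list summed to between 0.341% and 0.620% of the counts in EV_soft and between 0.663% and 0.934% in EV_stiff, and its part in the difference of miR-423-5p was not tested. Of the squamous epithelial list, 3 of 6 tested members were called lower, against 7.62% of all miRNAs tested, and 0 were called higher. The 3 were miR-200a-3p, miR-200b-3p and miR-200c-3p, all of the miR-200 family. Of the members not called, miR-203a-3p had a log2 fold change of 1.21 (adjusted p = 0.127 from edgeR), miR-205-5p had 0.20 (adjusted p = 0.168) and miR-429 had -0.76 (adjusted p = 0.0745). The list summed to between 6.41% and 7.14% of the counts in EV_soft and between 5.17% and 5.36% in EV_stiff.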

How the data were processed

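Small RNA libraries were made with the NEBNext kit and size-selected for miRNA inserts. Quality control was done by the authors with exceRpt, and raw read counts of RefSeq features were deposited. The labels name the build hg38, and the aligner is not given in the sources used here. No library was a copy of another (chi-square of counts, at least 3.70 per degree of freedom). Groups and replicate numbers came from the labels.

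The counts were tested in R 4.3.3 with edgeR 4.0.16 (filterByExpr, TMM factors, quasi-likelihood test) and Benjamini-Hochberg adjustment over 105 rows. The standard error is the size of the fold change divided by the square root of F. Arm ratios were fitted with limma 3.58.1 over 9 hairpins with 0.5 added to each count. Log2 CPM for correlations used a prior count of 2. A count of 0 allows up to 3 reads, which is 44.8 to 108 CPM depending on the library. The procedures were tested on simulated data. The arm ratios simulated there differed by more than that of miR-423, so the simulation does not cover a difference of its size.

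Hairpins and sequences came from RefSeq, which matched 406 of 471 row names, and from GENCODE 44. The hairpin was folded with RNAfold 2.7.2.

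Named are both arms, the rows of miR-3184, the 2 rows above and below each arm in mean share, the 4 rows most correlated with each arm, hairpins with both arms in the highest 60 rows or with extreme differences of ratio, and members of the lists. The members and lists were chosen with earlier results of these data known. Alternatives were other scalings, filters, tests (DESeq2 1.42.0, the likelihood ratio test, limma-voom), fits without the most abundant row, a replicate block, and fits that omit each library.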

Additional observations from a re-analysis of the deposited data

How the results depend on the processing

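miR-423-5p was called higher with RLE factors, upper quartile factors or no factors (log2 fold change 1.10 to 1.24), with both other filters, with DESeq2, the likelihood ratio test and limma-voom, and without the most abundant row. Omitting any 1 of the 6 libraries kept the call (1.05 to 1.31), as did the fit without both replicate 2 libraries, an alternative chosen after seeing the data. It was not called with the same size for every library (0.32), where miR-423-3p reversed to -0.52. miR-423-3p was called in none of these fits. Its values ranged from 0.20 to 0.34 with 1 library left out, and from 0.22 to 0.36 in the other fits, apart from that with the same size for every library. Its adjusted p was at most 0.05 with RLE (0.0333), upper quartile factors (0.0282) and DESeq2 (0.0260), and without EV_soft replicate 2 (0.0236) or both replicate 2 libraries (0.0259), always under the fold threshold.

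The difference of the arm ratio passed with edgeR on the arm counts (0.88). It also passed in limma with a minimum mean count of 30, which left 4 hairpins (0.88, adjusted p = 0.0341). In limma it did not pass with a pseudocount of 1, with a minimum mean count of 5, or without both replicate 2 libraries (0.81, adjusted p = 0.438). Nor did it pass in the 6 limma fits that left out 1 library, where it ranged from 0.70 to 1.05. The edgeR test on the arm counts was run on all 6 libraries only. The number of miRNAs called was 19, and ranged from 13 without EV_stiff replicate 1 to 27 with the likelihood ratio test. With the same size for every library 57 were called lower and 0 higher by edgeR, and 0 rose at an unadjusted p under 0.05.

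The replicate numbers share no stated culture, and same-numbered libraries deviated from their group means with correlations of -0.13, 0.13 and -0.03, and in 1 of 3 cases the correlation was highest with its own number. With the replicate block the log2 fold changes were 1.18 and 0.30 and the difference of the ratio was 0.88, with no call changed for these results and 16 miRNAs called.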
